A study of Rattus norvegicus with 4 samples.

Results

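Proliferating spots of the injured kidney were the 5% of spots in the PAN section with the highest share of UMIs from 4 genes of the cell division programme, Mki67, Top2a, Ccna2 and Cenpf. A UMI is a unique molecular identifier that stands for 1 captured RNA molecule, and each spot of the array covers tissue of several cells, which may be of more than 1 type. Of 2729 spots of the section, 2607 had at least 3000 UMIs and were ranked, and 131 of them were taken as proliferating. They were compared with 1951 spots of the same section that had 0 UMIs of the 4 genes, called 0-UMI spots here. The other 525 spots had UMIs of the selecting genes but a lower share. The series held 10383 spots in all.

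The section came from 1 of 4 kidneys of Sprague-Dawley rats, 1 frozen section per group, cut at 10 µm for the Visium assay, which captures RNA at fixed positions of a slide. The PAN rat had been injected with puromycin aminonucleoside, a toxin of podocytes used to produce glomerular disease, and fed freely. It was examined 5 months after that injection, 6 weeks after the end of the treatment period. The PAN_LS-FMD rat had the same injection and timing and received LS-FMD, a diet that mimics fasting and is low in salts, for 6 cycles. The healthy_LS-FMD rat had no injection and was taken 72 h after refeeding from 1 cycle of the diet, and the healthy rat had no treatment. The labels do not give the age of the rats. With 1 section per group there was no replicate, so no p-value was computed, and every 95% interval covers counting error only.

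A cell that divides first copies its DNA, with the replication helicase, its loading factors and the enzymes of nucleotide supply, and then separates the copies in mitosis with the spindle, the kinetochores and the anaphase-promoting complex. Mki67 coats mitotic chromosomes, Top2a untangles DNA, Ccna2 is the cyclin of S and G2 phase, and Cenpf is a kinetochore protein of G2 and M phase. The kidney tubule renews slowly at rest, and surviving tubule cells re-enter the cycle after injury, when they express markers such as Havcr1 (the kidney injury molecule KIM-1). Mature podocytes, the filter cells of the glomerulus, are regarded as cells that no longer divide.

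The choice of spots rested on few molecules. The 131 proliferating spots held 265 UMIs of the 4 genes, out of 861 in all ranked spots. Of these spots, 53 had 1 such UMI, 39 had 2, 28 had 3, 7 had 4, 2 had 5 and 2 had 6. Those with 1 UMI had at most 5303 UMIs in total (median 4249), while the 78 with 2 or more had a median of 9271. Mki67 was seen in 79 of the proliferating spots, Top2a in 64, Cenpf in 38 and Ccna2 in 33. Just 1 of the 4 genes was detected in 64 spots, 2 in 51, 3 in 16 and all 4 in 0. The spots just inside the cut had 189, 188 and 188 CPM (counts scaled to a total of 1000000) of the selecting genes (1 of 5303, 2 of 10616 and 3 of 15942 UMIs), and the nearest outside had 188, 186 and 185 CPM (1 of 5323, 1 of 5373 and 1 of 5399). These values describe the choice and were not tested.

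**Figure D1:**
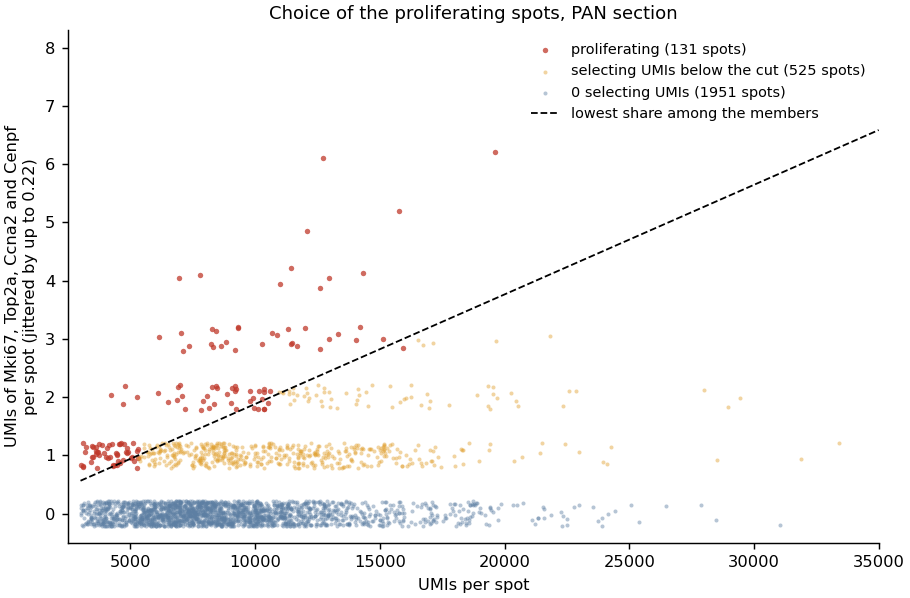
UMIs of the 4 selecting genes (vertical axis, points jittered by up to 0.22) against all UMIs (horizontal axis) in each ranked spot of the PAN section. Red points are the 131 proliferating spots, yellow the 525 below the cut and blue the 1951 with 0 such UMIs, and the dashed line is the lowest share among the proliferating spots. Spots with a single selecting UMI passed the cut up to 5303 UMIs.

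The proliferating spots were somewhat shallower, with a median of 7061 UMIs and 3207 genes, against 8294 UMIs and 3430 genes in the 0-UMI spots. Summed over spots, they held 981860 UMIs, against 17626440 in the 0-UMI spots, so that 3 counts stood for 3.06 CPM in proliferating spots and 0.170 CPM in the 0-UMI spots. Mitochondrially encoded genes made up 2.75% of UMIs in proliferating spots and 2.98% in 0-UMI spots. The level of a gene in a set is its summed UMIs in CPM. A gene was counted as higher or lower when its fold was at least 1.5 and the exact 95% interval of the ratio of counts excluded 1, among genes with at least 20 UMIs in both sets together. In a spot, fewer cells of a type and less RNA per cell cannot be told apart.

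Mitosis genes had the highest summed fold of all lists. Of 46 measured genes of the mitosis list, from which the selecting genes had been removed, 28 were higher and 0 lower. Over all 11560 genes tested, 305 (2.64%) were higher and 224 (1.94%) lower. The median log2 fold of the mitosis list was 1.22, against 0.01 over all genes tested. Summed over the list, the level was 987 CPM in proliferating spots, 703 CPM in spots below the cut and 552 CPM in 0-UMI spots, a fold of 1.79 (95% interval 1.67 to 1.91) of proliferating over 0-UMI spots. Per spot, the list ran from 0 through a median of 836 to 3755 CPM in proliferating spots, and from 0 through 508 to 2240 CPM in 0-UMI spots. The medians were apart but the spots overlapped over most of their range.

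The proximal 250 bases before the gene start are shown for Nusap1 and Espl1, the 2 mitosis genes with the highest fold among those with at least 50 UMIs. They are from RefSeq on GRCr8, 5′ to 3′ on the gene's strand. Capitals mark CCAAT and the cell cycle elements TTTGAA and TTTAAA, each read on both strands.
Nusap1, chr3:127057045-127057294 (+): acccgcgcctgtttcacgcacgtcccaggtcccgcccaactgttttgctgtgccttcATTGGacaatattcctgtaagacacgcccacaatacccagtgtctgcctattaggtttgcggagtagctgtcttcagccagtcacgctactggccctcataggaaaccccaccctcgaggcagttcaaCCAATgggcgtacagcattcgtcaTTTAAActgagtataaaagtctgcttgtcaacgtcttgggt
Espl1, chr7:135302466-135302715 (+): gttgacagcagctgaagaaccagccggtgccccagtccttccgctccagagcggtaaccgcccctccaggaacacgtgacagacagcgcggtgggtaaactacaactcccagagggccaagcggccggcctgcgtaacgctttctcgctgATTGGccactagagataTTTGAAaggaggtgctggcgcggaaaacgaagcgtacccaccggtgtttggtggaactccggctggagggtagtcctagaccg
In RefSeq both starts lie inside the annotated span of the gene, by 75 bases for Nusap1 and 256 bases for Espl1, so other transcripts begin further upstream. The window of Aurka, the next gene of the list, lay 2121 bases inside its span and is not printed. CCAAT began 193 and 65 bases before the start of Nusap1 and 100 bases before that of Espl1. TTTAAA began 41 bases before the start of Nusap1, and TTTGAA 83 bases before that of Espl1.

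Promoters were found for 24 of the 28 higher mitosis genes. CCAAT was in 19 of these 24 windows (79.2%) and in 34.0% of all 33469 promoters of the same length. TTTGAA was in 12 of 24 (50%), against 16.2% of all promoters, and TTTAAA in 8 of 24 (33.3%), against 12.3%. The E2F motifs TTCCCGC and TTGGCGC were in 1 and 2 of the 24, against 3.36% and 1.78% of all promoters. The shares were much the same over the whole list, whether or not a gene was higher: of 41 windows found for the 46 measured mitosis genes, 73.2% held CCAAT, 48.8% TTTGAA and 34.1% TTTAAA. The motifs were searched on both strands, did not overlap each other in the 2 windows shown, and are matches of letters only.

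Genes of the spindle, its kinesins and cytokinesis were among those that were higher. Nusap1, a spindle microtubule protein, had 21 UMIs or 21.4 CPM in proliferating spots, against 72 UMIs or 4.08 CPM in 0-UMI spots, 5.24-fold (3.06 to 8.61). Aurka, the kinase of spindle poles, had 25.5 CPM in proliferating spots, against 6.92 CPM in 0-UMI spots, 3.68-fold (2.29 to 5.69). Kif23, a kinesin of the midbody, was 3.30-fold higher (2.02 to 5.18), Kif22, a chromosome-binding kinesin, 2.66-fold (1.67 to 4.06), and Ect2, an exchange factor of cytokinesis, 2.65-fold (1.74 to 3.91). Spots below the cut lay between the sets for these 5 genes, with 5.78 CPM for Nusap1 and 9.08 CPM for Aurka.

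Genes that separate the chromosomes were higher as well. Espl1, the protease separase, had 10.2 CPM in proliferating spots, against 2.38 CPM in 0-UMI spots, 4.27-fold (1.91 to 8.66), and Pttg1, its inhibitor securin, was 3.53-fold higher (1.67 to 6.80). Ube2c, the ubiquitin-conjugating enzyme of the anaphase-promoting complex, had 40.7 CPM in proliferating spots, against 11.97 CPM in 0-UMI spots, 3.40-fold (2.36 to 4.79), and Cdc20, an activator of that complex, was 2.29-fold higher (1.45 to 3.48). Kinetochore and chromosome structure genes were Spc24 at 3.13-fold (2.16 to 4.43), Cenpw at 3.34-fold (1.83 to 5.74) and the condensin subunit Ncaph at 3.21-fold (1.80 to 5.42). The mitotic kinase Cdk1 had 27.5 CPM in proliferating spots, against 9.59 CPM in 0-UMI spots, 2.87-fold (1.84 to 4.32). Its partner Ccnb1 was 2.34-fold higher (1.03 to 4.71) on 9 UMIs, and Foxm1, a transcription factor of G2 and M phase, 2.60-fold (1.29 to 4.78).

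Of the 18 mitosis genes that did not pass, Stmn1, a tubulin-binding protein, had a fold of 1.43 (1.26 to 1.60), short of 1.5 with the interval above 1. The kinesin Kif11 had 33.6 CPM in proliferating spots and 43.3 CPM in 0-UMI spots (fold 0.775, 0.530 to 1.10), and Melk had a fold of 0.723 (0.261 to 1.61).

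Genes of DNA replication differed less. How far the choice by genes such as Cenpf, of G2 and M phase, sets this contrast with the mitosis list was not tested. Of 32 measured, 6 were higher and 0 lower, with a median log2 fold of 0.36. The summed level was 649 CPM in proliferating spots, 546 CPM below the cut and 518 CPM in 0-UMI spots, a fold of 1.25 (1.15 to 1.36). Among the 6 were Ccne2, a cyclin of S phase entry, at 3.14-fold (1.19 to 7.09), the helicase member Cdc45 at 2.94 (1.28 to 5.99), the helicase subunits Mcm5 at 2.34 (1.48 to 3.56) and Mcm6 at 1.82 (1.17 to 2.73), and thymidine kinase Tk1 at 1.58 (1.03 to 2.35). Pcna, the sliding clamp, had 83.5 CPM in proliferating spots and 61.6 CPM in 0-UMI spots, 1.36-fold (1.07 to 1.70), and did not pass. The count of 6 was 2 with members chosen by either pair of selecting genes and 1 with the mean of spot CPM.

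**Figure D2:**
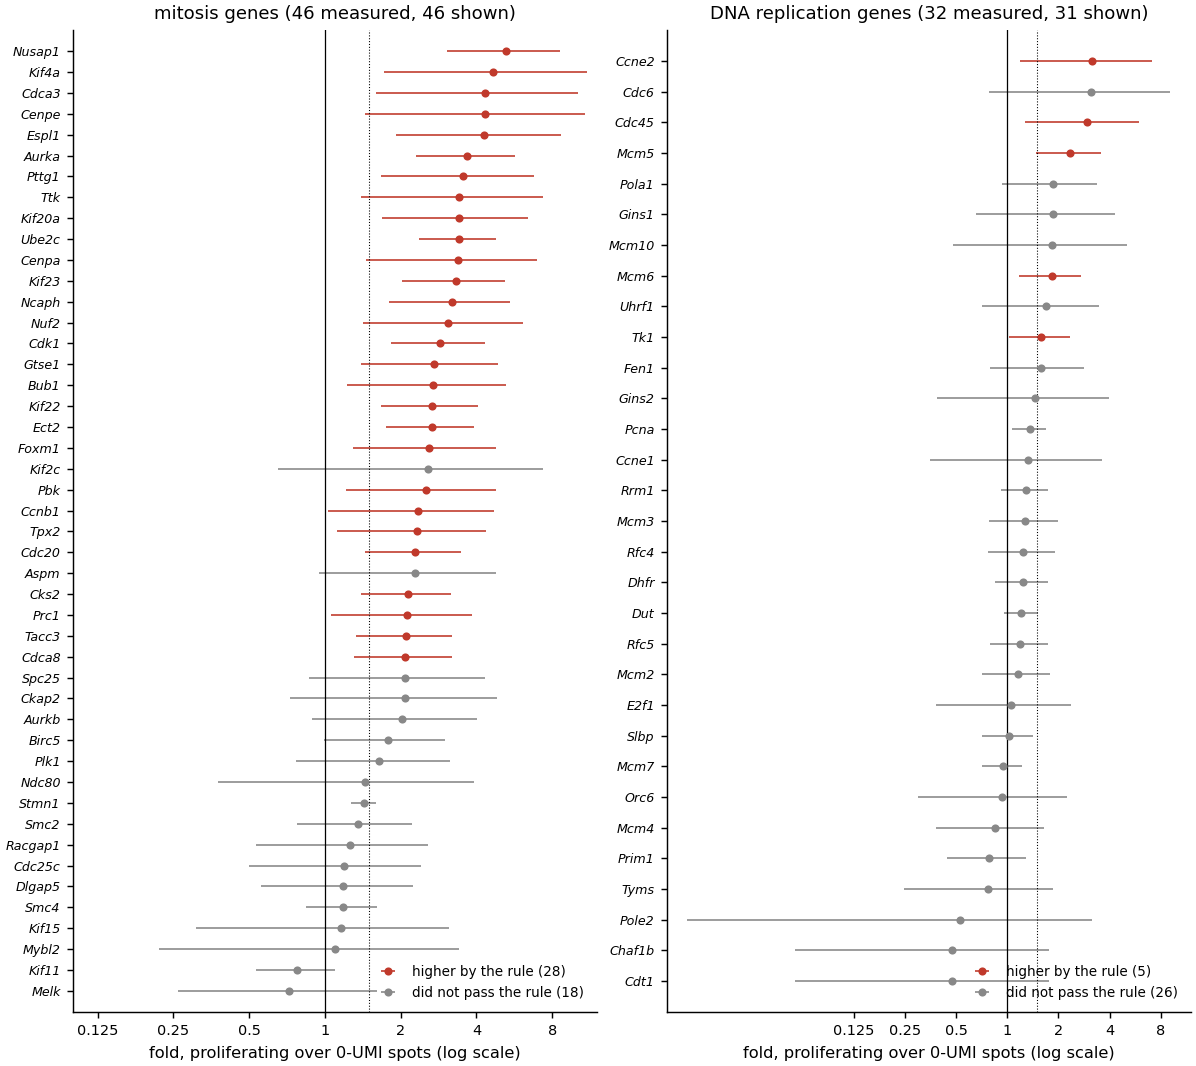
Fold of proliferating over 0-UMI spots of the PAN section (horizontal, log scale) for each measured gene of the mitosis list (left) and the DNA replication list (right). Points are ratios of summed CPM with exact 95% intervals of counting error, red where the gene was higher by the rule; the dotted line is 1.5. In the mitosis list 28 of 46 genes were higher, and in the replication list 6 of 32, of which 31 genes are drawn.

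Genes of entry into the cycle and of arrest had few calls, where 2.64% of all genes tested were higher and 1.94% lower. The cyclin D and early G1 list had 0 of 6 genes called, with 321 CPM in proliferating spots and 298 CPM in 0-UMI spots; Ccnd1 had a fold of 1.13 (0.965 to 1.32) and Myc one of 1.19 (0.872 to 1.60). Of 13 genes of cell cycle arrest, 1 was higher: Cdkn2a, an inhibitor of the cyclin D kinases, had 7 UMIs in proliferating spots and 47 in 0-UMI spots, 2.67-fold (1.02 to 5.95). Cdkn2b had 28.5 CPM in proliferating spots and 18.7 CPM in 0-UMI spots (fold 1.52, 0.997 to 2.24), and did not pass.

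Because the 4 selecting genes define the spots, each pair was also used to choose spots in which the other pair was read. With the top 5% chosen by Mki67 and Top2a, Ccna2 and Cenpf together had 28.0 CPM in the chosen spots and 8.55 CPM in spots with 0 UMIs of the choosing pair, 3.27-fold (2.10 to 4.94). With the choice by Ccna2 and Cenpf, Mki67 and Top2a had 54.0 CPM in the chosen spots and 22.6 CPM in the others, 2.39-fold (1.80 to 3.12). These choices shared 89 and 56 of their 131 spots with the choice by all 4 genes. The mitosis list was at 882 CPM in the spots chosen by either pair, against 563 CPM (Mki67 and Top2a) and 584 CPM (Ccna2 and Cenpf) in their 0-UMI spots.

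Markers of tubule segments fell into lists that were lower and lists in which no gene was called. Of 6 measured genes of the proximal tubule S3 segment, 5 were lower and 0 higher, with 2050 CPM in proliferating spots, 3924 CPM below the cut and 4325 CPM in 0-UMI spots, a fold of 0.474 (0.453 to 0.495). Slc7a13, an amino acid transporter of S3, had 81 UMIs or 82.5 CPM in proliferating spots, against 4694 UMIs or 266 CPM in 0-UMI spots, a fold of 0.310 (0.246 to 0.386). Kap, the androgen-regulated kidney protein, had a fold of 0.375 (0.349 to 0.402). Per spot, the S3 list had a median of 1570 CPM in proliferating spots and 2244 CPM in 0-UMI spots. When the 0-UMI spots were weighted to the regions that held the proliferating spots, 1 S3 gene was lower and the fold of the list was 0.802.

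In the thick ascending limb, the salt-reabsorbing segment of the loop of Henle, 6 of 7 genes were lower, with 3847 CPM in proliferating spots, 5754 CPM below the cut and 7034 CPM in 0-UMI spots, a fold of 0.547 (0.529 to 0.565). Umod, uromodulin, had 3043 CPM in proliferating spots, against 5549 CPM in 0-UMI spots, a fold of 0.548 (0.529 to 0.569). Slc12a1, the NKCC2 cotransporter, had 268 CPM in proliferating spots, against 553 CPM in 0-UMI spots, a fold of 0.484 (0.427 to 0.548). With weighting to regions 5 genes were lower and the fold was 0.656, while with members chosen by either pair of selecting genes 1 was lower. In the collecting duct, 3 of 6 principal cell genes and 2 of 7 intercalated cell genes were lower; the water channel Aqp2 had a fold of 0.662 (0.568 to 0.767) and the anion exchanger Slc4a1 one of 0.462 (0.349 to 0.601). The principal cell count was 0 with weighting to regions.

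The S1 and S2 segments of the proximal tubule did not follow S3. None of the 16 genes passed in either direction, and the list had 9463 CPM in proliferating spots and 9684 CPM in 0-UMI spots. Lrp2, the endocytic receptor megalin, had a fold of 0.911 (0.850 to 0.976). Slc6a19, Slc7a7 and Slc2a2, transporters of amino acids and glucose, had folds of 1.37, 1.34 and 1.33, and Miox, an enzyme of inositol breakdown, one of 0.733. Of 14 nuclear genes of the respiratory chain 1 was lower, Ndufs1 at 0.586 (0.373 to 0.879), where 1.94% of all genes tested were lower. Of 11 genes each of fatty acid oxidation and of glycolysis, 0 were called.

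Tubular injury genes differed little between the sets of spots. The list summed to 25540.3 CPM in proliferating spots, 23191 CPM below the cut and 21564 CPM in 0-UMI spots, a fold of 1.18 (1.17 to 1.1996), with 1 of 19 genes higher. That gene was Fgb, a fibrinogen chain, at 1.68-fold (1.09 to 2.5005), where 2.64% of all genes tested were higher. Havcr1 had 287 CPM in proliferating spots, 264 CPM below the cut and 200 CPM in 0-UMI spots, a fold of 1.44 (1.27 to 1.62) that fell short of 1.5. Spp1, osteopontin, had a fold of 1.21 (1.19 to 1.23). It held 19814 of the list's 25077 UMIs in proliferating spots and 293396 of 380095 in 0-UMI spots, so the summed level was mainly that of Spp1. Sox9, a transcription factor of regenerating tubule, had 18 UMIs in proliferating spots and a fold of 1.503 (0.874 to 2.43).

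Immune and stromal lists differed by small amounts. Over all genes tested, 2.64% were higher and 1.94% lower, beside which the single calls below stand. None of 16 macrophage genes, 8 of dendritic cells and MHC class II, 11 of T and NK cells or 8 of B cells was called, and their summed folds were 1.17, 1.24, 1.19 and 1.41. C1qa, a complement gene of macrophages, had a fold of 1.10 (0.990 to 1.23), and Cd3e, a T cell receptor chain, one of 1.10 (0.751 to 1.55). Cd79a, a B cell receptor chain, had 11 UMIs in proliferating spots and 114 in 0-UMI spots, a fold of 1.73 (0.841 to 3.22). Irf4, a transcription factor of plasma cells and activated lymphocytes, was higher at 2.63-fold (1.51 to 4.33), as was Pou2af1, a coactivator of B and plasma cells, at 1.80 (1.02 to 2.96). Pou2af1 was the 1 higher gene of 5 in the plasma cell list, whose summed fold was 1.21; the antibody genes Ighm and Igkc had folds of 1.18 and 1.28, and Mzb1, a chaperone of antibody assembly, had 3 UMIs in proliferating spots and a fold of 0.494 (0.100 to 1.48). Tnc, the matrix protein tenascin C, was the 1 higher gene of 18 for fibroblasts and matrix, at 1.58-fold (1.19 to 2.07), and Col1a1 had a fold of 1.22 (1.11 to 1.34). Cxcl10, an interferon-induced chemokine, was the 1 of 13 interferon genes, at 1.70-fold (1.23 to 2.30). None of 10 endothelial genes was called, and the list's fold was 0.967. Nor was any of 8 genes of smooth muscle and pericytes, 3 of the distal convoluted and connecting tubule, 4 of the inner medulla, 1 of the urothelium, 4 of germinal centres, 6 of mast cells, 3 of neutrophils, 7 immediate early genes or 7 YAP targets. Of 4 red blood cell genes Hba-a2, a globin, was lower at 0.589 (0.507 to 0.681), and of 2 adipocyte genes Cidec, a lipid droplet protein, was lower at 0.659 (0.419 to 0.989).

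**Figure D3:**
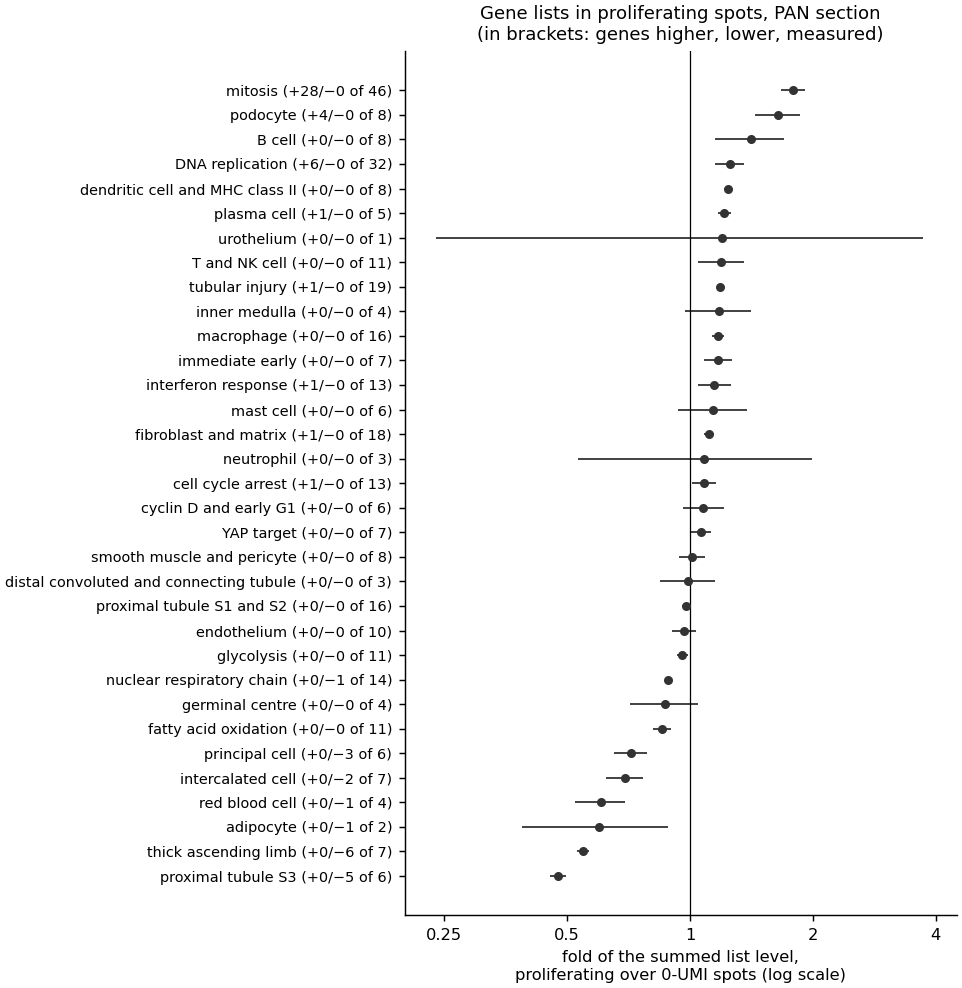
Fold of the summed level of each gene list, proliferating over 0-UMI spots of the PAN section (log scale), with exact 95% intervals of counting error. Brackets give the genes higher, lower and measured. Mitosis (1.79) and podocyte (1.64) were highest, and thick ascending limb (0.547) and proximal tubule S3 (0.474) lowest.

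Podocyte genes were the second highest list, and this result rested on few spots. Of 8 genes, 4 were higher and 0 lower, and the list summed to 279 CPM in proliferating spots, 163 CPM below the cut and 170 CPM in 0-UMI spots, a fold of 1.64 (1.44 to 1.85). Nephrin of the slit diaphragm, Nphs1, was 3.11-fold higher (1.97 to 4.74), and Wt1, a podocyte transcription factor, 2.83-fold (1.59 to 4.74). The 5 proliferating spots richest in podocyte UMIs held 141 of the 274 (51.5%), and 3 spots in a region with Igfbp2, Ptpro and Podxl among its leading genes held 127. Per spot, the medians of the list were 121 CPM in proliferating and 120 CPM in 0-UMI spots. Without that region 0 of 8 genes were higher, 1 was lower, and the list's fold was 1.04.

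Of the 15 genes with the highest fold at 100 UMIs or more, 9 were from the cell cycle (Aurka, Ube2c, Cenpw, Kif23, Ncaph, Spc24, Cdk1, Kif22 and Ect2) and 3 were podocyte genes, among them Nphs1 and Wt1. The others were Rn50_10_0701.2 at 2.90-fold (1.60 to 4.95), the phospholipase Pla1a at 2.75 (1.88 to 3.92) and Irf4. The 15 lowest rested on 0 to 3 UMIs in the proliferating spots. Wbp4, a spliceosome protein, had 0 UMIs in proliferating spots and 164 in 0-UMI spots, a fold of 0 (0 to 0.408). Mbl1, a mannose-binding lectin, had 2 UMIs against 231 in 0-UMI spots, a fold of 0.155 (0.0187 to 0.568), and Prepl 3 UMIs against 282, a fold of 0.191 (0.0392 to 0.564). The other 12, each with 1 or 2 UMIs, were Wdr20, Taco1, Gh1, Prss30, Exoc3l1, Coro6, Ppp1r3c, Lrrc29, Apoh, Smpx, Cep68 and Ovol1, with folds of 0.127 to 0.236.

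To see where in the kidney the spots lay, the section was divided into 13 regions by clustering on genes other than the selecting genes and the cell cycle lists. The regions are named by leading genes, and leading genes are not results. A region led by Slc7a7, with Havcr1 among its 10 leading genes, held 17 proliferating spots among 132 ranked spots, 12.9% (7.68 to 19.8). A region led by Postn and Lum, matrix genes of fibroblasts, held 35 of 368, 9.51% (6.71 to 13.0). All ranked spots gave 5.02%, which the rule fixes. These 2 regions held 13.0% and 26.7% of the proliferating spots, against 3.84% and 13.1% of the 0-UMI spots. The region with Igfbp2, Ptpro and Podxl held 3 of 28 (10.7%, 2.27 to 28.2).

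The S3 region, led by Slc7a12, Slc7a13 and Kap, held 1 proliferating spot among 180 (0.556%, 0.0141 to 3.06), with a median depth of 11918 UMIs. Over its ranked spots, the selecting genes had 21.1 CPM (15.6 to 27.9) and the mitosis list 605 CPM (574 to 637). All ranked spots of the section had 34.9 CPM and 606 CPM. Regions led by Slc51b, Slc4a1 with Aqp2, and Slc4a11 held 7 of 301 (2.33%), 3 of 107 (2.80%) and 6 of 213 (2.82%). Proximal regions led by Pck1 and by Slc34a3 held 13 of 313 (4.15%) and 9 of 219 (4.11%). The region led by Kng1l1 and Slc12a1 held 14 of 237 (5.91%), that led by Calb1 6 of 113 (5.31%), that led by Alx1 15 of 336 (4.46%) and that led by Actg2 2 of 60 (3.33%). The intervals of the shares from 2.33% to 5.91% overlapped. By level over ranked spots the order differed. The region led by Kng1l1 had 29.0 CPM of the selecting genes and 517 CPM of the mitosis list. That led by Actg2 had 52.0 CPM and 681 CPM. Spots with 1 selecting UMI passed only up to 5303 UMIs, and whether depth plays a part in these shares was not tested.

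**Figure D4:**
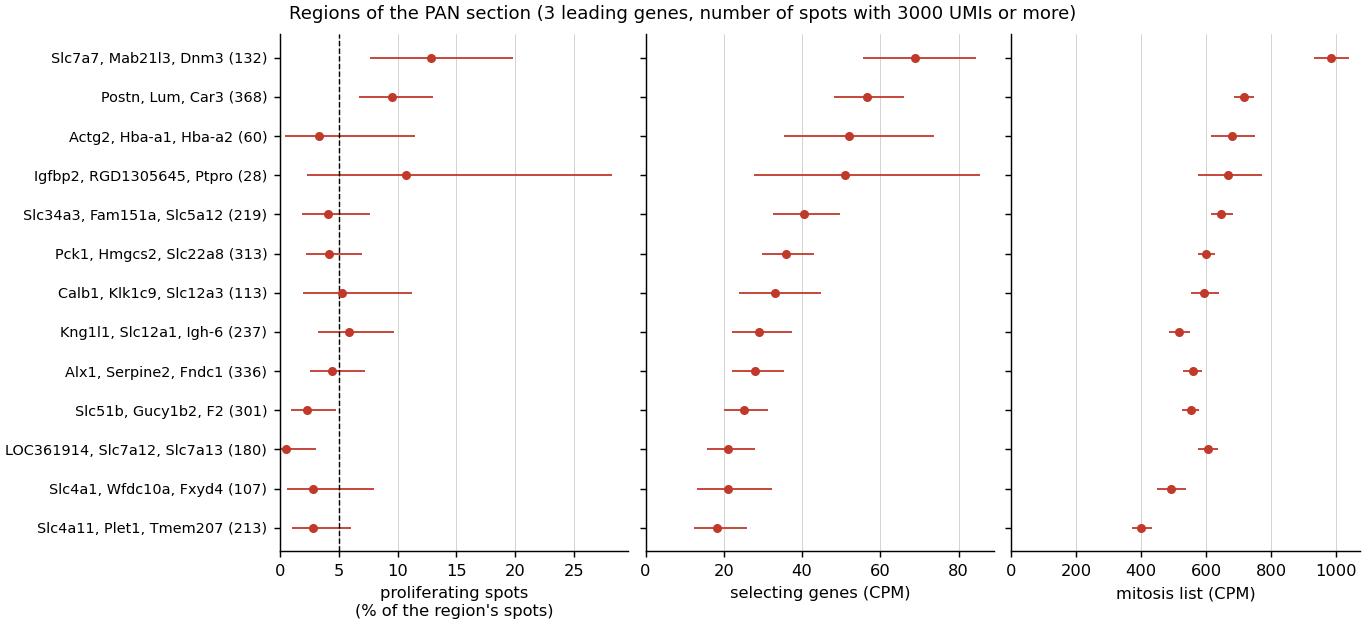
Regions of the PAN section, with the number of ranked spots in brackets, ordered by the level of the selecting genes. Panels show the percent of a region's spots that were proliferating (dashed line, 5.02% in all), the CPM of the 4 selecting genes and the CPM of the mitosis list, with exact 95% intervals of counting error. The region led by Slc7a7 was highest in all 3 panels, with 984 CPM of the mitosis list, and that led by Slc4a11 lowest in the last 2, with 401 CPM.

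The cell cycle genes had not been used to draw the regions, so their level could be compared between regions over all ranked spots. In the region led by Slc7a7, which had Havcr1 among its leading genes, 19 of 47 measured mitosis genes were higher than in the other regions and 0 lower (all genes, 2.86% higher and 5.04% lower), and 1 of 32 replication genes was higher. Cdk1 had 26.9 CPM there and 10.9 CPM in the other regions, 2.47-fold (1.69 to 3.52). Nusap1 was 3.04-fold higher (1.76 to 4.98) and Espl1 4.22-fold (2.23 to 7.51). In the same region 0 of 13 arrest genes were higher and 1, Gadd45b, was lower at 0.599 (0.451 to 0.782).

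In the region led by Postn, 15 of 47 mitosis genes and 6 of 32 replication genes were higher and 0 of either lower, where 8.9% of all genes were higher and 7.34% lower. Nusap1 was 1.97-fold higher (1.23 to 3.05), while Cdk1 had a fold of 1.16 (0.804 to 1.64). Here 4 of 13 arrest genes were higher, with Cdkn2a at 4.21-fold (2.60 to 6.68) and Cdkn2b, itself a leading gene of the region, at 3.52 (2.87 to 4.29). All 8 B cell genes were higher in this region too; like its matrix genes, they took part in the clustering. At a finer clustering, a region led by Lum, Ccl19 and Il16 held 22 proliferating spots among 187 (11.8%, 7.52 to 17.3). Another, led by Postn, held 13 among 177 (7.34%, 3.97 to 12.2). The spots that these finer regions share with the region above were not counted. In the region with Igfbp2, Ptpro and Podxl, 2 of 47 mitosis genes were higher and 0 lower (all genes, 6.36% higher and 3.18% lower).

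Within single regions the mitosis list also stood higher in the proliferating spots. It was 1359 CPM (1186 to 1551) in proliferating spots of the region led by Slc7a7, against 731 CPM (669 to 796) in its 0-UMI spots. In the region led by Postn it was 1047 CPM (921 to 1185) in proliferating spots and 652 CPM (615 to 690) in 0-UMI spots. In that led by Pck1 it was 939 CPM (767 to 1137) in proliferating spots and 546 CPM (516 to 577) in 0-UMI spots. In that led by Alx1 the intervals met, with 642 CPM (491 to 824) in proliferating spots and 535 CPM (503 to 569) in 0-UMI spots, and the spot medians ran the other way, at 380 CPM in proliferating and 503 CPM in 0-UMI spots.

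In the region led by Kng1l1 and Slc12a1, a region of thick ascending limb genes, the proliferating spots differed in more than the cell cycle. The mitosis list was 873 CPM (663 to 1129) in its 14 proliferating spots and 469 CPM (435 to 505) in its 185 0-UMI spots. The thick ascending limb list was 9425 CPM (8701 to 10193) in proliferating spots, against 20238 CPM (20009 to 20468) in 0-UMI spots, with spot medians of 9368 and 17010.0 CPM. The injury list was 31482 CPM in proliferating spots, against 23938 CPM in 0-UMI spots, with spot medians of 32473 and 21458 CPM. Spp1 held most of this list's UMIs in the section, and its part by region was not computed. The 14 proliferating spots held 19 selecting UMIs, so most had 1, and spots with 1 passed only up to 5303 UMIs in total. The median depth over the ranked spots of this region was 7476 UMIs. Whether depth plays a part in these differences was not tested. In the regions led by Slc7a7 and Postn the injury list was 29190.3 and 26854 CPM in proliferating spots, against 31547 and 26679 CPM in 0-UMI spots.

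The other sections show how common such spots were elsewhere. At the cut of the PAN section, 131 of 2607 PAN spots lay inside by the rule, against 3 of 2180 in PAN_LS-FMD (0.138%, 0.0284 to 0.402), 12 of 2551 in healthy_LS-FMD (0.470%, 0.243 to 0.820) and 4 of 2863 in healthy (0.140%, 0.0381 to 0.357). A fixed share is easier to reach in a shallow spot, and the median depth was 8676 UMIs in PAN, 14986.5 in PAN_LS-FMD, 8931 in healthy_LS-FMD and 19541 in healthy. With each spot thinned to 3000 UMIs, leaving out 122, 10, 44 and 6 shallower spots of these sections, the share with at least 1 selecting UMI was 9.77% (8.67 to 11.0) in PAN. It was 1.85% (1.31 to 2.49) in PAN_LS-FMD, 1.12% (0.763 to 1.63) in healthy_LS-FMD and 1.97% (1.48 to 2.53) in healthy. Unthinned, the shares were 25.2% in PAN, 8.35% in PAN_LS-FMD, 3.25% in healthy_LS-FMD and 10.9% in healthy.

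Genes outside the rule ran the same way. Cdk1 had 11.8 CPM in PAN, 2.78 CPM in PAN_LS-FMD, 1.98 CPM in healthy_LS-FMD and 2.66 CPM in healthy, and Ube2c had 14.5, 3.12, 1.86 and 4.63 CPM in the same order. The mitosis list summed to 606 CPM (596 to 616) in PAN, 444 CPM (437 to 451) in PAN_LS-FMD, 349 CPM (342 to 356) in healthy_LS-FMD and 399 CPM (394 to 404) in healthy. PAN was highest for each, and the other 3 sections changed order between genes. Havcr1 had 219 CPM in PAN, 6.21 CPM in PAN_LS-FMD, 5.47 CPM in healthy_LS-FMD and 8.44 CPM in healthy. The healthy section was processed with Space Ranger 2.0.1 and the other 3 with 1.2.1, so for the healthy section software and group cannot be told apart. All 4 sections shared 1221 barcodes, which in this assay mark slide positions.

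The few spots of the other sections that reached the PAN cut were set against spots of their own section with 0 selecting UMIs. In the 3 spots of PAN_LS-FMD, 0 of 38 mitosis genes were called (2.15% of all genes higher, 0.691% lower), and the list had 437 CPM in these spots and 438 CPM in its 0-UMI spots. In the 12 spots of healthy_LS-FMD, 3 of 34 mitosis genes were higher and 0 lower (2.89% and 1.3% of all genes), with 638 CPM in these spots and 344 CPM in its 0-UMI spots, 1.85-fold (1.33 to 2.52). In the 4 spots of healthy, 8 of 45 were higher and 0 lower (2.87% and 0.494% of all genes), with 1127 CPM in these spots and 385 CPM in its 0-UMI spots, 2.93-fold (2.22 to 3.80).

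Lists of several cell types differed in these spots. Of all genes tested, 2.87% were higher in healthy, 2.89% in healthy_LS-FMD and 2.15% in PAN_LS-FMD. In healthy, 7 of 8 podocyte genes were higher, with 1483 CPM (75 UMIs) in the 4 spots and 238 CPM in the 0-UMI spots, 6.23-fold (4.90 to 7.81). How these 75 UMIs were spread over the 4 spots was not examined. In the same 4 spots 3 of 13 interferon genes were higher (summed fold 4.43 on 39 UMIs). So were 4 of 8 genes of dendritic cells and MHC class II (2.41 on 127 UMIs) and 4 of 7 principal cell genes (2.04 on 91 UMIs). In healthy_LS-FMD, 3 of 8 podocyte genes (2.31), 6 of 7 intercalated cell genes (2.14) and 2 of 3 genes of the distal convoluted and connecting tubule (2.08) were higher. In PAN_LS-FMD, 0 of 8 podocyte genes were called (fold 1.23, 0.589 to 2.26), while 2 of 3 genes of the distal convoluted and connecting tubule (4.70) and 3 of 7 intercalated cell genes (2.34) were higher.

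**Figure D5:**
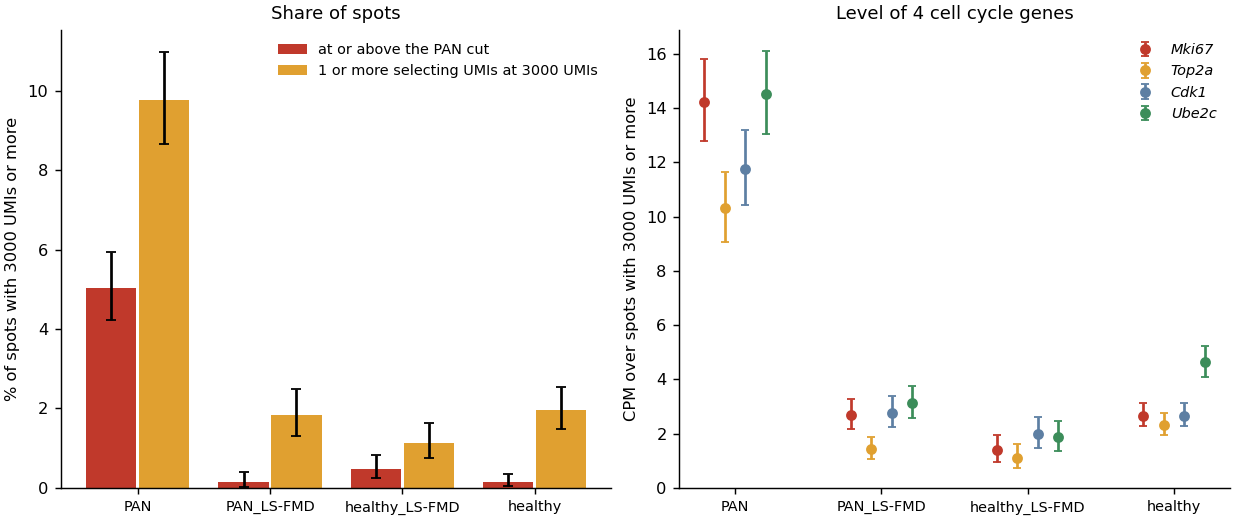
Left, percent of spots with 3000 UMIs or more in each section that reached the PAN cut (red) and that held at least 1 selecting UMI after thinning to 3000 UMIs (yellow). Right, CPM of Mki67, Top2a, Cdk1 and Ube2c over the same spots. Error bars are 95% intervals of counting error with 1 section per group, exact except on the yellow bars. Those are approximate, from the expected number of spots rounded to a whole number. PAN stands above the other 3 sections, at 9.77% after thinning, where the red bar of PAN is set by the rule.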

How the data were processed

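The deposited values were UMI counts per gene and spot, with no normalisation, for 4 kidney sections. They were made with Space Ranger 1.2.1 for PAN, PAN_LS-FMD and healthy_LS-FMD and 2.0.1 for healthy, per the file headers; the genome build is not given in the sources used here. The members and the 33 gene lists (403 genes, of which 390 were found in the files) were chosen with earlier results of these data known. Counts were summed over spots and scaled to CPM. Ratios carry exact 95% intervals from the conditional binomial distribution of both counts, and shares Clopper-Pearson intervals. UMI intervals treat molecules as independent and cover counting error only. The total per section ran from 24925280 UMIs (PAN) to 58569311 (healthy). Regions came from Leiden clustering in scanpy 1.11.5 (2000 variable genes, 30 components, 15 neighbours, resolution 1, spots with at least 500 UMIs, selecting genes and cell cycle lists left out). Doublet calling does not apply to spots. Thinning used the exact hypergeometric expectation. Intervals of the thinned shares are approximate, computed from the expected number of spots rounded to a whole number. Genes were named by rule: at 100 UMIs or more and an interval that excluded 1, the top 15 and the bottom 15 by fold (mitochondrial, ribosomal, haemoglobin and unnamed loci left out), up to 4 per list with at least 50 UMIs, and a fixed set of markers; 3 genes are not reported here by name, though lists and totals include them; further list genes were named after their values were seen. The fold, its interval and the calls were tested on simulated counts drawn independently for each gene. The choice of spots, the regions and the thinning were not simulated. Python 3.11.15, numpy 2.4.6, scipy 1.17.1, pandas 2.3.3 and igraph 0.11.9 were used. Alternatives changed the depth minimum, the share of spots, the selecting pair, the comparison spots, the averaging, the fold and the gene minimum; those with at least 2 selecting UMIs or without named regions were chosen after seeing the data.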

Additional observations from a re-analysis of the deposited data

How the results depend on the processing

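No paired analysis was possible because each group had 1 section. The count of higher mitosis genes (28) lay between 20 and 30 under every alternative except leaving out the regions led by Slc7a7 and by Postn, where it was 17 and the spots fewer. The count of higher replication genes (6) was 3 with the top 10% of spots, 2 with members chosen by Mki67 and Top2a, 2 by Ccna2 and Cenpf, 1 with the mean of spot CPM and 3 without those regions. The count of lower S3 genes (5) was 3 with the top 10%, 3 with members chosen by Ccna2 and Cenpf, and 1 with 0-UMI spots weighted to regions. The count of lower thick ascending limb genes (6) was 1 with either pair and 2 at a fold of 2. The count of lower principal cell genes (3) was 0 with the top 10%, with Mki67 and Top2a, against all other spots, with weighting to regions, at a fold of 2 and without those regions, and 1 with Ccna2 and Cenpf. Over all genes, weighting to regions gave 201 higher and 112 lower, and a fold of 2 gave 161 higher and 106 lower. Without the region with Igfbp2, Ptpro and Podxl 0 podocyte genes were higher; with members chosen by Ccna2 and Cenpf, Apoh turned to 1.14 and Hba-a2 to 1.18. The share of proliferating spots in the region with Postn among its leading genes (26.7%) was 44.3% at resolution 0.5, where no region had Havcr1 among its leading genes, and 9.92% at 1.5. The ratio of PAN over healthy_LS-FMD in the share of spots at the cut was 10.7, and 32.0 with the mitosis list in place of the selecting genes. Beyond regrouping of spots by the setting itself, the cause of these moves was not tested. Of 2265 values of 151 genes under 15 settings, 1974 kept their call (higher, lower or neither), 220 no longer passed and 69 newly passed. Another 2, of genes that had passed, changed direction. Changes of direction among genes that had not passed were not counted. Low depth limits single genes: in proliferating spots 3 UMIs are 3.06 CPM.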
